A study of Arabidopsis thaliana with 16 samples.

Results

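The genes described here had higher transcript levels after activation of the cytokinin response regulator ARR1, with and without added gibberellin, and stayed under a set limit when wild type was given the cytokinin benzyladenine (BA). They were chosen on measured values, and they comprised 57 of the 9454 probe sets tested. A probe set (the group of probes that reads 1 transcript on the array) was tested when its log2 value was at least 4 on at least 2 of the 16 arrays. A member had to have a difference of at least 0.8 on the log2 scale between seedlings of the ARR1ΔDDK:GR line with and without dexamethasone (DEX), both in paclobutrazol (PAC) with GA3 and in PAC alone, and these DEX differences had to lie within 0.6 of each other. Both BA differences, that is wild type with BA minus the line without DEX in the same background, had to be under 0.3. DEX in wild type had to move the value by no more than 0.5 either way. All of these differences were between means of 2 arrays, so they are given below as descriptions without a test.

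Whole seedlings of Arabidopsis thaliana in the Columbia-0 (Col-0) background were profiled on Affymetrix ATH1 arrays in 8 groups of 2 biological replicates. The tissue label gives an age of 6 days, while the protocols give 5 days both at the start of treatment and at RNA extraction. The transgenic line carries 35S::ARR1ΔDDK-GR, in which the constitutive 35S promoter drives ARR1 without its receiver (DDK) domain, fused to the hormone-binding domain of the glucocorticoid receptor. The line was given 10 µM PAC with 50 µM GA3, or PAC alone, for 18 h, and then 5 µM DEX for 3 h or no DEX. Wild type Col-0 was given PAC with GA3 and then 5 µM BA for 3 h, PAC and then BA, DEX alone, or nothing. No wild type with PAC and without BA was analysed here, so the BA differences also hold the difference between wild type and the transgenic line, and these cannot be told apart. The wild type with DEX received no PAC. The labels do not say how many transformants the line represents, or whether replicates came from separate sowings, so the errors measure the spread between these samples. In whole seedlings, fewer cells of a type and less RNA per cell cannot be told apart.

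Cytokinin is perceived by membrane histidine kinases, and phosphate is passed through shuttle proteins to type-B response regulators such as ARR1, which bind DNA and switch on genes. The receiver domain of a type-B regulator holds it in check until it is phosphorylated, so the truncated protein acts without the hormone once DEX lets the fusion enter the nucleus. PAC blocks gibberellin synthesis, which lets the growth-repressing DELLA proteins accumulate, and GA3 has them degraded.

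Over all probe sets, which do not stand for independent samples, the 2 arrays of a group had correlations of 0.968 to 0.985. The number of arrays limits the precision: the median standard error (SE) of a DEX or BA difference was 0.19 among the members, close to the limit of 0.3 on the BA side. The tested type-A response regulators RR16 and ARR15, which are early cytokinin response genes, were called higher after DEX in the line and after BA in each background (2 of 2 each time, limma, Benjamini-Hochberg adjusted p under 0.05), as were 9.12% to 10.4% of all probe sets tested after DEX and 1.31% to 2.1% after BA. The BA calls were not steady: in PAC they were 0 of 2 with only the compared arrays in the fit and 1 of 2 without a filter or under 11 of the 16 omissions of 1 array, and in PAC with GA3 they were 1 of 2 in that fit, without a filter and under 2 omissions. DEX in wild type also gave a call for RR16, at 1.22 ± 0.25 (adjusted p = 0.0484, limma; 0.656% of all probe sets tested were called higher), and ARR15 had 0.05 ± 0.29 there. Of the markers of seedling parts, the light-harvesting gene LHCB4.1 read 9.97 to 10.8 and the root hair expansin EXPA18 read 3.27 to 5.03 over the 16 arrays, and no other marker gene of the shoot or root lists was tested.

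Where the arrays were taken apart by replicate, more of the chosen probe sets met the DEX minimum again than met the BA limit again. The rule applied to the replicate 1 arrays alone chose 51 probe sets and to the replicate 2 arrays alone chose 76, of which 10 were shared, 19.6% and 13.2% of these sets. The 51 chosen on replicate 1 all had both DEX differences above 0 on the replicate 2 arrays, against 34.9% of all probe sets tested, and 32 of them (62.7%, against 5.50%) were at 0.8 or more in both. Of the 51, 18 (35.3%) had both BA differences under 0.3 on the replicate 2 arrays, against 60.8% of all probe sets tested. Their median BA difference in PAC was 0.51 on those arrays, and that in PAC with GA3 was -0.10. Of the 76 chosen on replicate 2, 75 had both DEX differences above 0 on the replicate 1 arrays (35.9% of all tested) and 41 (53.9%, against 4.71%) were at 0.8 or more in both. Of these 76, 20 (26.3%) had both BA differences under 0.3, against 72.2% of all tested, with medians of 0.25 in PAC with GA3 and 0.32 in PAC. Both sets were also chosen for their DEX differences, so all probe sets tested are no matched comparison for the BA side. On group means of both replicates, only 57 of the 392 probe sets that met the DEX conditions had both BA differences under 0.3.

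Wild type with BA in PAC was also uneven between replicates in the members themselves. Col-0 with PAC and BA read higher in replicate 1 than in replicate 2 in 45 of the 57 members (78.9%), against 53.9% of all probe sets tested, with a median gap of 0.22 against 0.03. Wild type with DEX was as uneven, at 45 of 57 and a median gap of 0.21, and the line with DEX in PAC with GA3 leaned the other way, with replicate 1 higher in 17 of 57 (29.8%, against 53.9% of all probe sets tested). The other 5 groups had replicate 1 higher in 24 to 33 members. The replicate 1 arrays alone put 23 of the 57 at or above 0.3 for BA in PAC, and the replicate 2 arrays put 3 there. In PAC with GA3 these counts were 10 and 8. Both BA arrays lay above both arrays of the line without DEX in 21 of 57 members (36.8%) in PAC with GA3, against 24.1% of all probe sets tested, and in 19 (33.3%, against 18.4%) in PAC. They lay below in 4 members in each background (7.02%), against 33.8% of all probe sets tested in PAC with GA3 and 22.9% in PAC. Set against untreated wild type, both BA arrays were above in 24 members (42.1%, against 24.8%) in PAC with GA3 and in 19 (33.3%, against 21.5%) in PAC. Untreated wild type received no PAC and no GA3, so these 2 counts hold their effects together with that of BA. The name of the set thus holds only for the group means at a limit of 0.3. At an unadjusted p under 0.05 (limma), 1 of the 57 members passed for BA in each background (1.75%). Over all probe sets tested, 21.3% passed in PAC with GA3 and 18.5% in PAC. The rule limits the BA differences and used these arrays, and the differences also hold the genotype. Neither the counts nor this share therefore show whether BA raised the members.

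**Figure D1:**
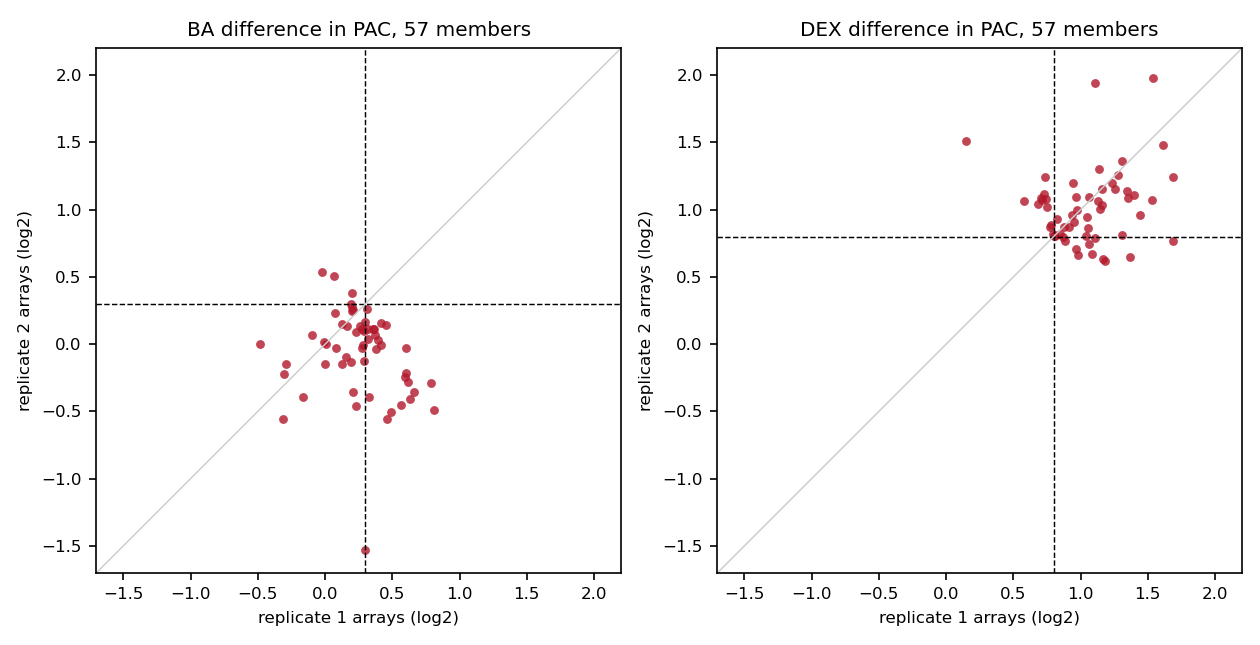
Differences of the 57 members on the replicate 1 arrays (horizontal axis) and on the replicate 2 arrays (vertical axis), in log2, for BA in PAC (left) and DEX in PAC (right); each point is a member, dashed lines mark the limits of 0.3 and 0.8 and the grey line marks equality. For BA, 23 members lie at or beyond the limit on replicate 1 and 3 on replicate 2, while for DEX 45 and 46 members lie at or beyond 0.8.

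On group means the members had a median DEX difference of 0.98 (0.81 to 1.80) in PAC with GA3 and 0.95 (0.80 to 1.76) in PAC. Their median BA difference was 0.08 (-0.37 to 0.29) in PAC with GA3 and 0.16 (-0.62 to 0.30) in PAC. DEX in wild type gave a median of -0.06. Over all 9454 probe sets the medians for DEX in the line were -0.02 in PAC with GA3 and -0.03 in PAC. Those for BA were -0.05 in PAC with GA3 and -0.02 in PAC, and that for DEX in wild type was -0.02. Both DEX arrays lay above both arrays without DEX in all 57 members in each background, as did 30.2% of all probe sets tested in PAC with GA3 and 24.6% in PAC. In 54 of the 57 members all 4 DEX arrays of the line lay above all 12 other arrays (7.37% of all probe sets tested did so, and the rule used these arrays). The exceptions were AT3G14760, AT1G53035 and the unnamed probe set 248357_at. Of the 57, 14 reached log2 4 on fewer than 2 of the 12 other arrays, so they were tested only through the arrays with DEX and had to be higher there. The highest group mean was that of the line with DEX in PAC with GA3 in 42 members and with DEX in PAC in the other 15. This split is the sign of the GA3 difference in the line with DEX. Over all 9454 probe sets tested that difference was above 0 in 5946 and below 0 in 3507.

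**Figure D2:**
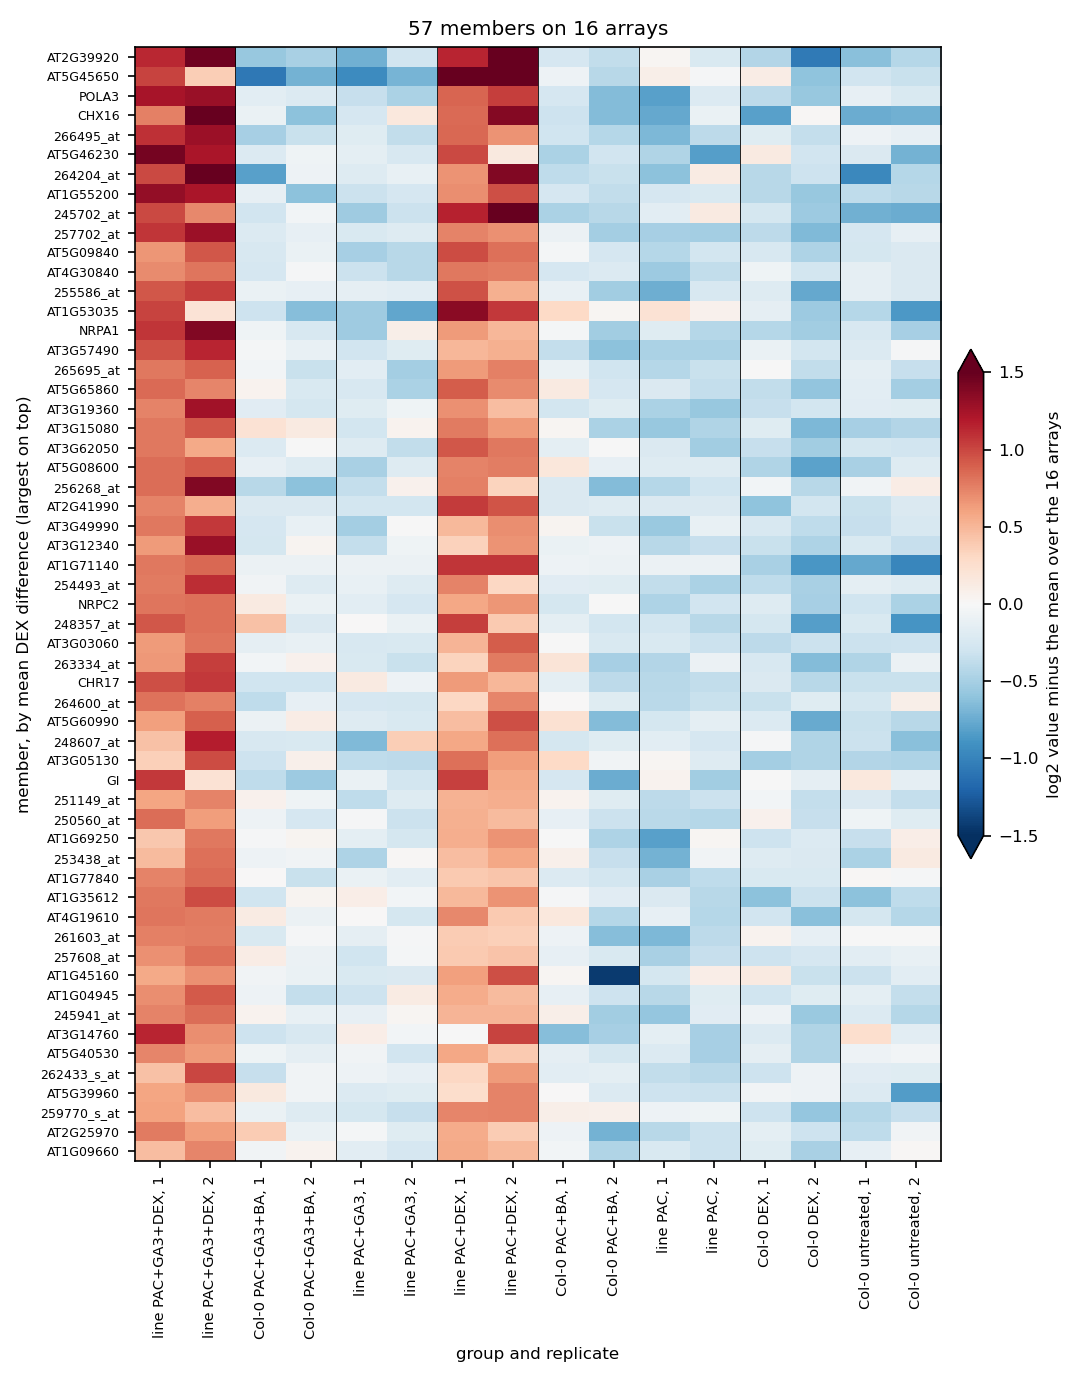
The 57 members (rows, by mean DEX difference with the largest on top) on the 16 arrays (columns, by group and replicate), coloured by the log2 value minus the member's mean over all arrays; "line" is ARR1ΔDDK:GR. The 4 columns of the line with DEX are the high ones, and all 4 lie above every other array in 54 of 57 rows.

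The set had no gap at its edges. Of the 57 members, 24 had a DEX difference between 0.8 and 0.9 in at least 1 background, 17 had both at 1 or more, and 27 had a BA difference between 0.2 and 0.3 in at least 1 background. Only 9 members had both BA differences below 0, while 34 had both between 0 and 0.3. Just inside the DEX minimum lay AT1G09660, with 0.81 in PAC with GA3 and 0.80 in PAC, and just outside it AT2G18330, with 0.95 and 0.79. Just inside the BA limit lay AT5G09840, with 0.29 in PAC with GA3 and 0.21 in PAC, and just outside it AT4G02820, with 0.11 and 0.31. The BA differences of AT5G09840 were between values below log2 4. Altogether 392 probe sets met the DEX conditions. Besides the 57 members, 168 of them had both BA differences at 0.3 or more and 167 had only 1 of the BA differences there.

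**Figure D3:**
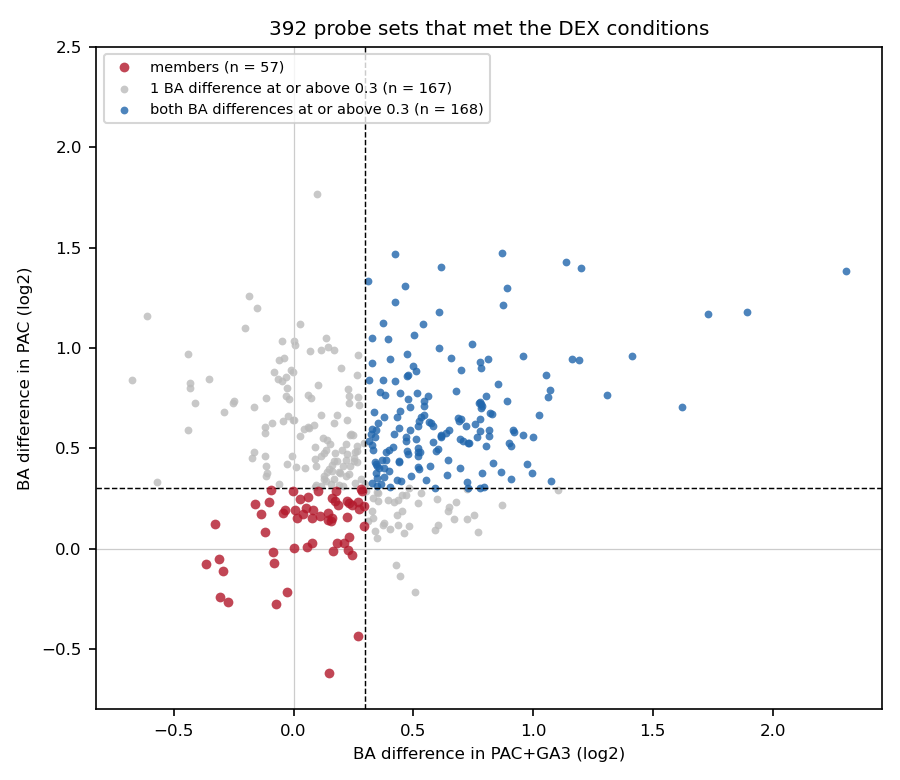
BA difference in PAC with GA3 (horizontal axis, log2) and in PAC (vertical axis, log2) of the 392 probe sets that met the DEX conditions, coloured by set; dashed lines mark the limit of 0.3. The members fill the lower left corner up to the limit without a gap to the probe sets beyond it.

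Against the 168 probe sets that met the DEX conditions and had both BA differences at 0.3 or more, the members had smaller DEX differences. The medians were 0.98 against 1.38 in PAC with GA3 and 0.95 against 1.21 in PAC. Both sets were chosen on the DEX and BA differences, which share the arrays of the line without DEX. The gap between these medians is therefore a description and no result about the members. The value of the line with DEX minus that of wild type with BA had a median of 0.96 in PAC with GA3 and 0.86 in PAC. The limits of the rule keep this difference above 0.5 in every member, so its sign is no result. Both DEX arrays lay above both BA arrays in all 57, against 35.5% of all probe sets tested in PAC with GA3 and 23.6% in PAC, and nothing is read from that count.

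Of the 57 members, 37 had 1 gene in the array's annotation table and 20 had none, so 20 are known only by probe set. The 36 named members whose locus could be placed among the protein-coding genes were scattered, with none within 5 genes of another and the closest pair 18 genes apart. A role or protein family could be stated for 21 of the named members. They are grouped here as 5 ribosome and RNA polymerase genes, 8 other RNA and chromatin genes and 8 transporters, enzymes and others. The last group includes AT5G46230, which is known here only by a domain of unknown function.

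The ribosome and RNA polymerase genes comprised subunits of the polymerases that make ribosomal RNA and small RNAs, a ribosomal protein and factors that process ribosomal RNA. NRPA1 (AT3G57660) encodes the largest subunit of RNA polymerase I, which transcribes the large ribosomal RNA precursor. It read 4.92 and 5.25 in the line with DEX, against 3.32 and 3.94 without DEX, in PAC with GA3, and 4.49 and 4.36 with DEX against 3.67 and 3.43 without DEX in PAC. In wild type it read 3.79 and 3.62 with BA in PAC with GA3, 3.82 and 3.33 with BA in PAC, 3.43 and 3.34 with DEX, and 3.61 and 3.35 untreated. All 4 arrays with activated ARR1 were above the other 12, and the wild type arrays with BA overlapped those of the uninduced line. The DEX difference was 1.46 ± 0.23 in PAC with GA3 and 0.88 ± 0.23 in PAC (SE, n = 2 against 2 arrays here and for every difference below). All 12 arrays without activated ARR1 were below log2 4, so NRPA1 is one of the 14 members tested only through the arrays with DEX, and no fold is given over so low a level.

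NRPC2 (AT5G45140), the second-largest subunit of RNA polymerase III, which makes transfer RNAs and the small ribosomal RNA of the large subunit, read 5.96 and 5.98 in the line with DEX against 5.00 and 4.90 without DEX in PAC with GA3. In PAC it read 5.74 and 5.82 with DEX against 4.70 and 4.87 without DEX. Wild type with BA read 5.29 and 5.05 in PAC with GA3 and 4.90 and 5.15 in PAC, which in both backgrounds is above both arrays of the uninduced line. Its DEX difference was 1.02 in PAC with GA3 and 0.99 in PAC (both ± 0.16), and its BA differences of 0.22 and 0.24 lay just inside the limit. NRPC2 thus met the rule although its BA arrays did not overlap those of the uninduced line.

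AT3G57490, a ribosomal protein S2 gene of the small subunit, was among the steadiest members. It read 7.78 and 7.97 in the line with DEX against 6.55 and 6.64 without DEX in PAC with GA3, and 7.33 and 7.36 with DEX against 6.35 and 6.36 without DEX in PAC. With BA it read 6.80 and 6.72 in PAC with GA3 and 6.48 and 6.21 in PAC. The DEX arrays stood clear of all others, by a DEX difference of 1.28 in PAC with GA3 and 0.99 in PAC (both ± 0.15). AT5G08600, a Utp14 protein of the U3 complex that cuts the ribosomal RNA precursor, and the DEAD-box RNA helicase gene AT5G60990 completed the group. AT5G08600 had a DEX difference of 1.22 in PAC with GA3 and 0.95 in PAC, and AT5G60990 had 0.97 and 0.92. AT5G60990 had a BA difference of -0.01 in PAC as a mean of arrays that were far apart, 6.26 and 5.38.

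The members of this role group can be set beside a list of 29 ribosome biogenesis genes, of which 11 were tested and NRPA1 was the only member. This list was written with earlier results of these data known, so its counts are descriptions and no independent support. All 11 were called higher after DEX in PAC with GA3 (10.4% of all probe sets tested were) and in PAC (9.12%), with median differences of 1.30 and 1.14. BA in PAC with GA3 gave 0 calls by limma (2.1% of all probe sets tested were higher) and 4 of 11 at an unadjusted p under 0.05 (21.3% of all probe sets tested), with a median of 0.22, and BA in PAC gave 4 of 11 (1.31% of all probe sets tested), and 7 of 11 at an unadjusted p under 0.05 (18.5%), with a median of 0.55. These 4 were NRPA2, AT2G40360, AT5G15550 and AT3G03920. They became 0 without replicate 2 of the line in PAC, 2 without replicate 1 and 1 without replicate 2 of wild type with PAC and BA. With only the compared arrays in the fit, the calls were 10 of 11 for DEX in PAC with GA3, 5 for DEX in PAC and 0 for BA in either background, and without a filter the 4 BA calls in PAC were 2. NRPA2, the second subunit of the same polymerase as NRPA1, had a BA difference of 1.00 ± 0.24 in PAC (adjusted p = 0.0444, limma), against 0.03 ± 0.23 for NRPA1, while both had a DEX difference above 0.8. The rule held the BA difference of NRPA1 under 0.3, and its arrays with BA and of the uninduced line were all below log2 4. Whether the subunits differed from each other was not tested.

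The 8 other RNA and chromatin genes had median DEX differences of 0.95 in PAC with GA3 and 0.92 in PAC. POLA3 (AT5G41880), a primase subunit of DNA polymerase alpha, which starts new DNA strands at replication, had the largest. It read 7.19 and 7.25 in the line with DEX against 5.61 and 5.47 without DEX in PAC with GA3, and 6.82 and 6.99 with DEX against 5.13 and 5.75 without DEX in PAC. With BA it read 5.79 and 5.75 in PAC with GA3 and 5.70 and 5.30 in PAC, and untreated wild type read 5.82 and 5.73. The induced arrays stood clear of every other array, and no BA array was above the higher untreated one. Its DEX difference was 1.68 in PAC with GA3 and 1.47 in PAC (both ± 0.20), which is 3.20-fold and 2.76-fold.

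CHR17 (AT5G18620), an ATPase of the ISWI family that slides nucleosomes, read 7.35 and 7.44 in the line with DEX against 6.52 and 6.31 without DEX in PAC with GA3. In PAC it read 7.02 and 6.88 with DEX against 5.96 and 6.02 without DEX. Its BA arrays read 6.09 and 6.08 in PAC with GA3, below both arrays of the uninduced line, and 6.24 and 5.99 in PAC, where the pairs overlapped. The DEX difference of CHR17 was nearly equal in both backgrounds, at 0.98 with GA3 and 0.96 without (both ± 0.15).

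Of the other members of this group, AT3G19360, a CCCH zinc finger protein, had DEX differences of 1.12 in PAC with GA3 and 1.09 in PAC, and AT3G12340, an FK506-binding protein, 1.18 and 0.89. AT1G77840, the translation initiation factor eIF5, which helps select the start codon, had 0.92 and 0.83. The RNA-binding proteins AT2G25970 and AT1G09660 (KH domain) and AT1G69250 (NTF2 and RRM domains) had 0.81 each in PAC with GA3, at the edge of the rule.

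The 8 transporters, enzymes and other genes had median DEX differences of 1.44 in PAC with GA3 and 1.18 in PAC. These medians include members tested only through the arrays with DEX, AT1G55200 and AT1G71140 among them. Several of the 8 were named for the size of their DEX difference or a low BA difference, so the medians of the role groups are not set against each other. AT2G39920, an acid phosphatase of the HAD superfamily, had the largest mean DEX difference of all 57. It read 6.09 and 6.41 in the line with DEX against 4.24 and 4.67 without DEX in PAC with GA3, and 6.10 and 6.67 with DEX against 4.99 and 4.73 without DEX in PAC. With BA it read 4.38 and 4.47 in PAC with GA3 and 4.70 and 4.58 in PAC. The induced arrays were at least 1 log2 unit above the others, and in PAC both BA arrays were below both arrays of the uninduced line. The DEX difference was 1.80 in PAC with GA3 and 1.52 in PAC (both ± 0.24), which is 3.47-fold and 2.87-fold.

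AT5G45650, a subtilase (a secreted protease of the subtilisin family), read 5.71 and 5.06 in the line with DEX against 3.75 and 4.01 without DEX in PAC with GA3. In PAC it read 6.33 and 6.66 with DEX against 4.79 and 4.68 without DEX. In wild type with BA the values were 3.62 and 3.99 in PAC with GA3 and 4.63 and 4.29 in PAC. Its levels were lower with GA3 than without in the line with DEX, in the line without DEX and in wild type with BA, and no pair overlapped. The DEX difference was 1.51 in PAC with GA3 and 1.76 in PAC (both ± 0.26).

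CHX16 (AT1G64170), a cation/H+ exchanger, read 4.76 and 5.91 in the line with DEX against 3.75 and 4.16 without DEX in PAC with GA3, and 4.85 and 5.38 with DEX against 3.24 and 3.90 without DEX in PAC. With BA it read 3.90 and 3.39 in PAC with GA3 and 3.69 and 3.34 in PAC. Its DEX differences of 1.38 and 1.54 carried an SE of 0.38, the widest of the members described here. The protein kinase gene AT1G55200 was low, at 2.82 and 2.89 in the line without DEX in PAC with GA3 and 2.89 and 2.92 in PAC. It reached 4.47 and 4.37 with DEX in PAC with GA3 and 3.84 and 4.12 in PAC. AT5G46230, a gene with a domain of unknown function (DUF538), had DEX differences of 1.52 in PAC with GA3 and 1.20 in PAC.

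AT1G71140, a MATE efflux protein gene, was among the members with a low uninduced value. It read 4.19 and 4.26 with DEX against 3.31 and 3.31 without DEX in PAC with GA3, and 4.47 and 4.47 with DEX against 3.31 and 3.31 without DEX in PAC, and 3.31 or 3.32 on all 4 BA arrays. These 8 arrays of the uninduced line and of wild type with BA repeat nearly 1 value below log2 4, so a likeness in transcript level cannot be read from them. Untreated wild type read 2.63 and 2.43. The mean was below log2 4 in the line without DEX in 18 of the 57 members, in PAC with GA3 and again in PAC, and only 6 members were above 6 on every array.

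GI (AT1G22770), which encodes the clock and flowering protein GIGANTEA, was among the members lowest after BA. It read 6.29 and 5.45 in the line with DEX against 5.13 and 4.95 without DEX in PAC with GA3, and 6.25 and 5.80 with DEX against 5.29 and 4.71 without DEX in PAC. With BA it read 4.86 and 4.69 in PAC with GA3 and 4.98 and 4.49 in PAC, against 5.40 and 5.10 in untreated wild type. All 4 BA arrays were below both untreated arrays, and the BA differences from the uninduced line were -0.27 and -0.26 (both ± 0.28), within their errors. The DEX difference was 0.83 in PAC with GA3 and 1.03 in PAC.

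**Figure D4:**
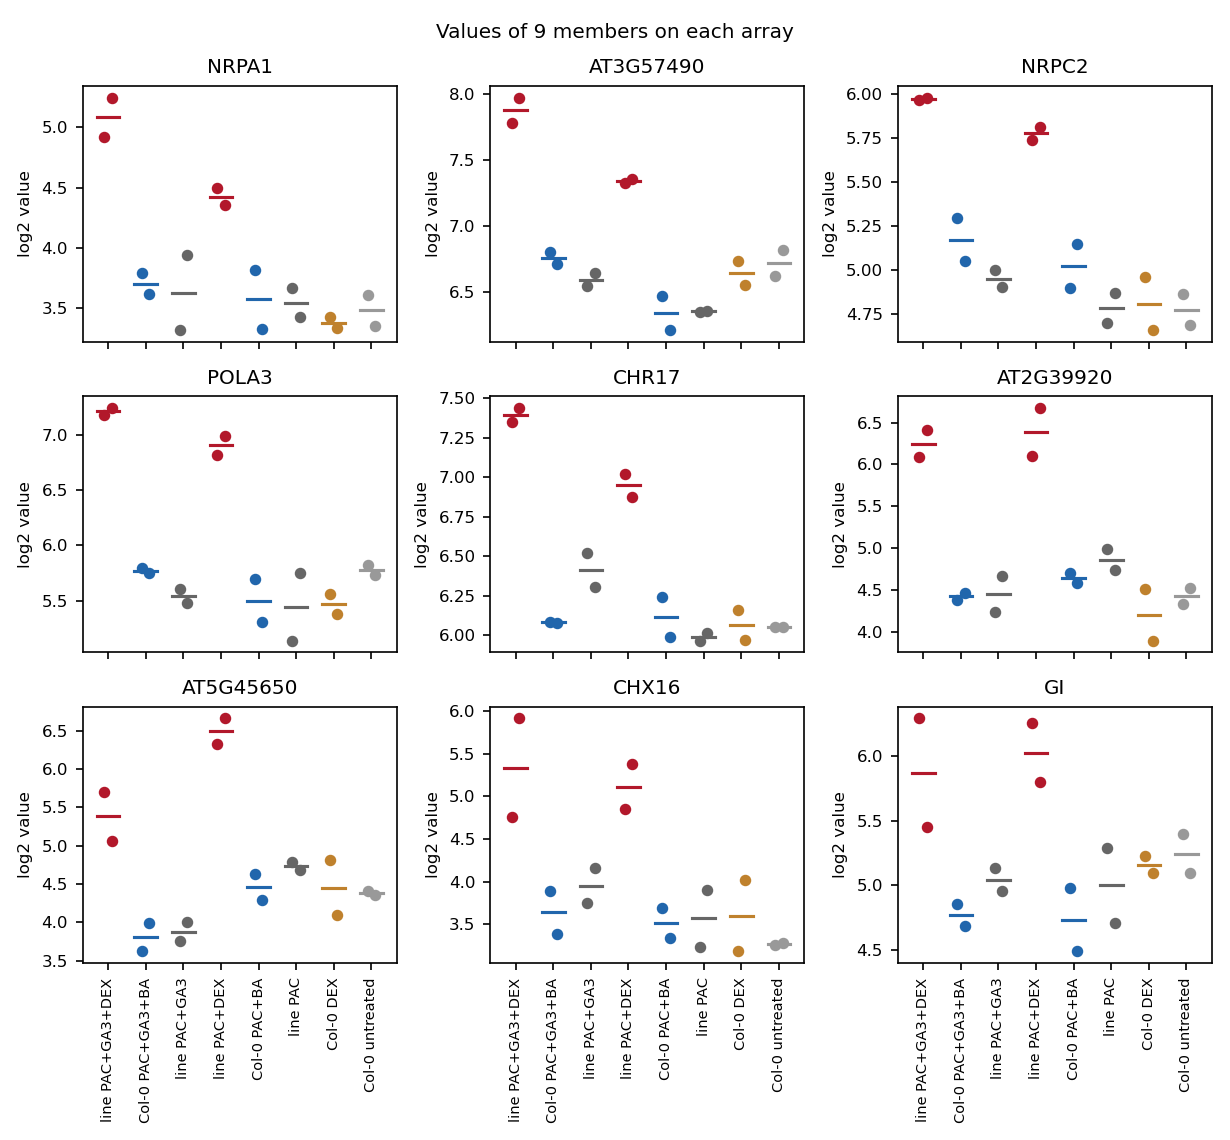
Log2 values of 9 members on each array (points) with the group mean (bar), by group along the horizontal axis; the vertical axes are log2 and do not start at 0. Red marks the line with DEX, blue wild type with BA, grey the line without DEX and untreated wild type, and brown wild type with DEX. In all 9 panels the 4 red points are the highest.

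Among named members with no role stated here, AT5G09840, AT4G30840 and AT5G65860 had DEX differences of 1.26, 1.12 and 1.15 in PAC with GA3 and 1.25, 1.24 and 1.10 in PAC. AT5G09840 read only 2.99 to 3.45 on the 12 arrays without activated ARR1, so it was tested only through the arrays with DEX. AT1G45160 had the lowest BA difference of the set, -0.62 ± 0.35 in PAC, which rested on 1 array: wild type with BA in PAC read 4.57 and 3.10, against 4.27 and 4.63 in the line without DEX. The unnamed probe sets with the largest mean DEX difference were 266495_at, 264204_at and 245702_at, with 1.46, 1.39 and 1.29 in PAC with GA3 and 1.30, 1.27 and 1.34 in PAC. Of these, 245702_at read 3.25 to 4.14 on the 12 arrays without activated ARR1 and was tested only through the arrays with DEX.

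The effect of GA3 was not used to choose the members and was tested. GA3 in the line, averaged over seedlings with and without DEX, gave 2 calls among the 57 members (3.51%), 1 higher and 1 lower, against 2.83% of all probe sets tested (1.93% higher and 0.91% lower), which is a share near the background (limma, Benjamini-Hochberg adjusted p under 0.05). AT5G45650 fell by 0.98 ± 0.19 with GA3 (adjusted p = 0.0196, limma), lower in both states of the line, and CHR17 rose by 0.43 ± 0.10 (adjusted p = 0.0461, limma). Neither call held at every setting. AT5G45650 lost its call in a fit of the line's arrays alone, without a filter on low values and under some omissions of 1 array. CHR17 lost its call in the fit of the line's arrays alone, with quantile normalization and with centring on the 75th percentile. It also lost the call under more omissions than AT5G45650, among them each array of untreated wild type and of wild type with DEX. These wild type groups are not part of the GA3 difference in the line. At an unadjusted p under 0.05 there were 17 members (29.8%), against 22.2% of all probe sets tested. The median GA3 difference in the line was 0.19 in the members, against 0.06 over all probe sets tested. Of the members 43 were above 0 and 14 below, while 5702 of all 9454 probe sets tested were above 0 and 3752 below. With quantile normalization the medians were 0.11 in the members and -0.01 over all probe sets tested. At the floor of log2 6 they lay close together, at 0.15 in the 26 members kept and 0.12 over all probe sets tested there.

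Next to the called members, AT1G53035 had a GA3 difference in the line of -0.70 ± 0.19 (adjusted p = 0.058, limma) and AT3G57490 had 0.39 ± 0.11 (adjusted p = 0.0628, limma), and neither passed the threshold. Both passed at the floor of log2 6 (adjusted p = 0.0467 and 0.0495, limma), and AT1G53035 also with a block for the replicate number (adjusted p = 0.0129, limma). Both arrays with GA3 lay above both without it in 28 members in the line with DEX (49.1%), against 26.8% of all probe sets tested, and in 22 (38.6%, against 27.4%) in the line without DEX. They lay below in 6 and 8 members, which were 10.5% with DEX and 14% without DEX, against 11.9% and 16.6% of all probe sets tested. The arrays of the line are the same ones the rule used, and the rule kept the DEX differences with and without GA3 within 0.6 of each other.

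In wild type with BA, GA3 gave 0 calls among the members by limma, against 0.0317% of all probe sets tested (0.0106% higher and 0.0212% lower), and 4 members (7.02%, against 10.7%) at an unadjusted p under 0.05. The median GA3 difference there was 0.06, against 0.04 over all probe sets tested, and with centring on the 75th percentile it was -0.01. It was 0.15 without replicate 1 and -0.06 without replicate 2 of wild type with PAC and BA, so its sign rested on 1 array, and it was 0.12 without replicate 2 of wild type with PAC, GA3 and BA. AT5G45650 had -0.65 ± 0.26 in wild type with BA (adjusted p = 0.435, limma) and AT1G53035 had -0.64 ± 0.26 (adjusted p = 0.435, limma). The GA3 effect in wild type with BA minus that in the line gave 0 calls among the members and 0 among all probe sets tested, and 2 members (3.51%, against 14.4%) at an unadjusted p under 0.05. The limits on the BA and DEX differences also narrow this difference in the members, so their low share is not a result.

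**Figure D5:**
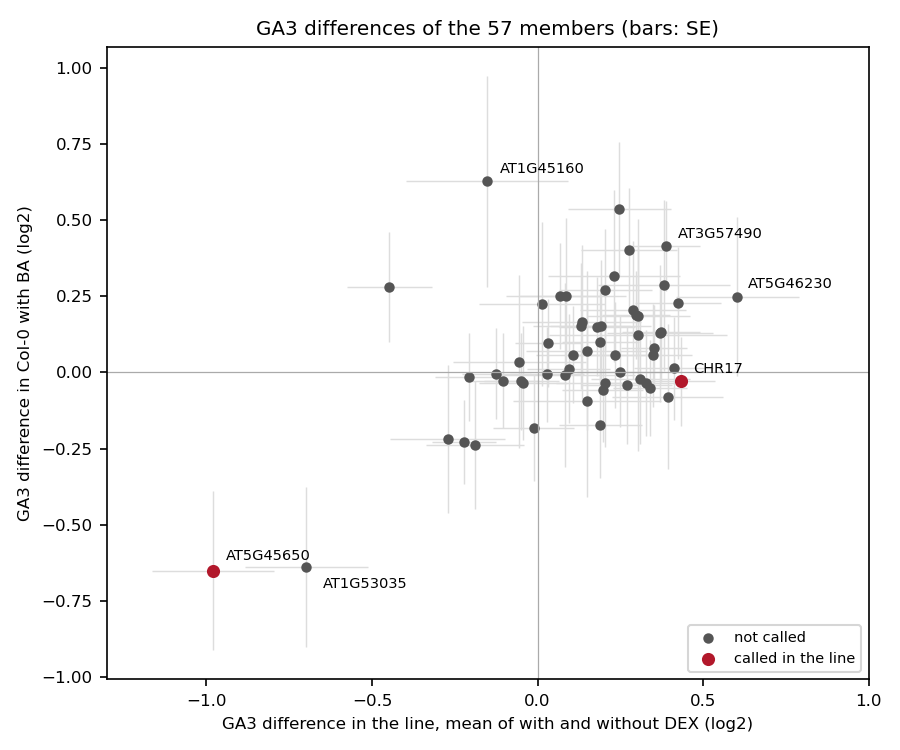
GA3 difference of the 57 members in the line, averaged over with and without DEX (horizontal axis, log2), and in wild type with BA (vertical axis, log2), with bars for the SE. Red points, AT5G45650 and CHR17, passed the limma threshold in the line, and no member passed it in wild type with BA.

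Which probe sets were members depended on single arrays. Leaving out 1 array at a time gave 39 to 72 members, and 5 of the 57 met the rule each time: AT3G57490, AT5G45650, CHR17, AT1G71140 and AT2G41990. Of these, AT1G71140 read 2.43 to 3.32 and AT2G41990 read 2.55 to 2.95 on the 12 arrays without activated ARR1. Both were thus tested only through the arrays with DEX, and values so low can repeat a background value. That they were kept each time is therefore not read as a steady transcript level. At least 12 of the 16 omissions kept 48 of the 57, among them NRPA1 (12), NRPC2 (13), GI (13), CHX16 (14), AT2G39920 (15) and POLA3 (15). With untreated wild type in place of the uninduced line as the comparator of BA there were 95 members, 40 of them shared, which was 70.2% of the 57 and 42.1% of the 95.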

How the data were processed

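The starting values were the authors' deposited log2 values, 1 per probe set and array, obtained with GCRMA per the submitters' processing notes. GCRMA corrects for background, normalizes the arrays together and combines the probes of each set. Low probe sets can repeat 1 background value on many arrays, each its own, so differences of low genes may be compressed. The lowest value was 2.36. A version of it is not given in the sources used here. Of 22810 probe sets, 64 controls were dropped, 13292 were dropped as dim by the floor of log2 4 on 2 arrays, and 9454 were kept. Genes were named from the platform's annotation, with symbols updated by NCBI gene identifier, and 4529 of the probe sets kept had no single gene. Promoter and protein sequences were not used here.

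A model of the 8 group means was fitted by limma 3.58.1 (R 4.3.3) to all 16 arrays with no covariate, leaving 8 residual degrees of freedom. Tests were two-sided, with Benjamini-Hochberg adjustment over all 9454, and called under 0.05. The script was tested on simulated data. Members were tested for GA3 in the line, GA3 in wild type with BA and the difference of these effects. These contrasts were not part of the rule but use arrays that it used, and the members' DEX and BA differences were the rule itself.

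The members, the 10 gene lists and the 13 classes of words in gene symbols were chosen with earlier results of these data known. Named were the 12 members with the largest mean DEX difference and 1 gene, the 8 lowest mean BA differences, members in a list or word class, called members, those at the limits and the top 3 unnamed probe sets. Other named members were chosen after their values were seen, for a role that could be stated. The word classes held 2 members, NRPA1 and NRPC2, and the lists held NRPA1. In the other lists, UGT76C2 of cytokinin metabolism was called higher with DEX and with BA in each background, 1 of 3 jasmonate and ethylene genes tested was called lower with DEX in PAC, XERICO of the gibberellin list was not called, and no type-B regulator, receptor, phosphotransfer or cytokinin response factor gene was tested.

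Other settings tried were no filter on low values, a floor of log2 6, quantile normalization, each array centred on its 75th percentile, a trended and robust eBayes, a block for the replicate number, a fit of the compared arrays alone, BA set against untreated wild type, each replicate's arrays alone, and each array omitted. A group left with 1 array was taken to vary like the rest. Figures were drawn in matplotlib 3.10.9 (Python 3.11.15).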

Additional observations from a re-analysis of the deposited data

How the results depend on the processing

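The rule gave 57 members. A floor of log2 6 gave 26, all of them among the 57, since fewer probe sets were tested, and untreated wild type as the BA comparator gave 95. Quantile normalization gave 45 and centring on the 75th percentile 48. Leaving out 1 array gave 39 to 72, and the 39 came without replicate 2 of the line in PAC with GA3.

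GA3 in the line, averaged over DEX, was called for 268 probe sets. This became 176 without a filter, 454 in the fit with the replicate block and 24 when the compared arrays were fitted alone, and it was 29 to 617 with 1 array left out. The 617 came without replicate 1 and the 29 without replicate 2 of the line with DEX in PAC. The count was 414 without replicate 1 and 131 without replicate 2 of the line in PAC, 111 and 38 without these replicates of the line in PAC with GA3, 154 and 33 without those of the line with DEX in PAC with GA3, and 170 to 174 without an array of untreated wild type, wild type with DEX or wild type with BA in PAC with GA3. The members called were 2, against 1 without a filter, with quantile normalization or with the 75th percentile, 4 at the floor of log2 6, 4 with the replicate block, 0 for the compared arrays alone, and 0 to 5 with 1 array left out. The 5 came without replicate 1 of the line with DEX in PAC, and the 0 without replicate 2 of that group, without either replicate of the line in PAC with GA3 or without replicate 2 of the line with DEX in PAC with GA3. These 4 omissions each lost the call of AT5G45650. AT5G45650 kept its direction throughout (-1.14 to -0.82) and its adjusted p was 0.015 to 0.0925. CHR17 had 0.32 to 0.49 and an adjusted p of 0.0375 to 0.168. The replicate block also called AT1G53035 (adjusted p = 0.0129, limma) and AT5G46230 (adjusted p = 0.0492, limma), and the floor of log2 6 called AT1G53035 and AT3G57490.

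GA3 in wild type with BA was called for 3 probe sets, and for 51 without a filter, 0 at the floor of log2 6, 0 for the compared arrays alone and 0 to 173 with 1 array left out, the 173 without replicate 1 of wild type with PAC and BA. That omission also gave the most calls of the difference of both GA3 effects, 31 against 0, and 34 came without a filter. It called 1 member (0 to 1 over all omissions), AT1G45160, at 1.36 in wild type with BA, which was -0.11 without replicate 2 of that group and 0.63 with both. CHR17 had -0.03 there with both, 0.10 without replicate 1 and -0.16 without replicate 2. The causes were not tested.

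The labels give replicate numbers without a statement of pairing. Deviations of same-numbered arrays correlated at -0.331 to 0.48 (median 0.207) over 28 pairs of groups, above 0.1 in 21 of them and below -0.1 in 2. Same-numbered arrays thus mostly deviated together, and a shared replicate effect cannot be set aside. The main fit has no term for it because the labels state no pairing. The differences given by replicate subtract same-numbered arrays of different groups. The block raised the GA3 counts in the line as given above. The 2 arrays in each group limit all of these results.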
